A study of Caenorhabditis elegans with 3 samples.

Results

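LIN-15B peaks that lie away from annotated promoters are described here, 315 regions of the C. elegans genome chosen from 30000 listed peaks. A peak of the series-wide list entered if it lay on an autosome, if a peak ranked 1 to 2000 by strength overlapped it in at least 2 of the 3 replicate lists, and if its summit fell outside every promoter. A promoter was taken as 500 bp upstream to 200 bp downstream of a protein-coding transcript start. Of 24320 autosomal peaks, 1448 (5.95%) met the rank condition. Of 18608 autosomal peaks outside promoters, 315 (1.69%) met it, against 1133 of 5712 peaks in promoters (19.8%). The off-promoter peaks were thus 21.8% of the reproducible autosomal peaks. These shares follow from the ranks and positions that chose the regions and are given as a description. With 1 replicate left out and both others required, the count was 214 without replicate 1, 156 without replicate 2 and 203 without replicate 3. This rule is stricter and can only lower the count from 315, so the drop is by construction.

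Chromatin immunoprecipitation with sequencing was done on intact larvae of the L1 stage, both sexes pooled, of strain OP184. This strain is an unc-119(tm4063) mutant with the insertion wgIs184, through which it expresses LIN-15B fused to eGFP. There was 1 group of 3 biological replicates with no control sample in it, so no groups were compared, and values are given with their spread over replicates. Replicates 1 and 2 have the stock centre CGC as their source, and a fragment size range is given for both. The labels of replicate 3 give the Snyder laboratory as its source, a microtip for sonication, and GFP-FLAG as a tag at the C-terminus. The antibody label names only lin-15B. Whole animals were used, so tissues cannot be told apart. Each list held exactly 30000 peaks and no read counts, so the depth is unknown, and a rank (1 is the strongest) is comparable between lists only as an order.

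LIN-15B is a nuclear protein with a THAP-type domain, and it belongs to the synMuv B genes, which in worms keep germline genes silent in the soma and act beside the DREAM complex of LIN-35, E2F and LIN-54 proteins. Such factors are best known from gene promoters. In C. elegans, sites away from an annotated start can be distal enhancers, starts of long primary transcripts that trans-splicing removes, or the control regions of small RNA genes.

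The sequences below are shown because they carry GA repeats, the word with the highest share in these regions, or an E2F-like word, which is known from targets of the DREAM complex. Each is the plus strand of ce11 (WBcel235, read from the RefSeq genome), 50 bp either side of the series-wide summit, and each region is named after the next protein-coding start. Capitals mark GAGAGA or its complement TCTCTC, and in the C07H6.9 region GCGCGAA, the complement of the E2F-like word TTCGCGC.
K12H4.5, chrIII:8043934-8044034: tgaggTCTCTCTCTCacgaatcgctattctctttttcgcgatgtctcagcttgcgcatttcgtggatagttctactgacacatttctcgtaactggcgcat
kin-19, chrIII:4087745-4087845: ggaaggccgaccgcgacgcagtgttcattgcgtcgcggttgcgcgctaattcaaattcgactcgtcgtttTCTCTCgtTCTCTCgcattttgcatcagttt
C07H6.9, chrIII:7498578-7498678: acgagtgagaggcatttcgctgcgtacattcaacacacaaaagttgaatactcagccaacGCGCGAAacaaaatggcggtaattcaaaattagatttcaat
Y59A8B.24, chrV:17951390-17951490: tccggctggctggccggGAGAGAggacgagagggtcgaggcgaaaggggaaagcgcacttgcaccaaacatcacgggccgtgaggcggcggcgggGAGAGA
pygl-1, chrV:3579902-3580002: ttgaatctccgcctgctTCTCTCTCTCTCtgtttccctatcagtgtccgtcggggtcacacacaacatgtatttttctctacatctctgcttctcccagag
The K12H4.5 and pygl-1 windows hold an unbroken CT run, the Y59A8B.24 window holds separate words on the plus strand, and the C07H6.9 window has the E2F-like word without a GA repeat.

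A second set of sequences is the 100 bp just upstream of snRNA genes with such a peak, written 5′ to 3′ on the strand of the RNA gene. These genes were picked after their values were seen. Capitals mark AACCC and ATGTC, words noticed in these very sequences. The Ensembl annotation gives the name R07E5.16 to 14 genes and the name F54D8.7 to 3, so the gene identifier tells which one is meant.
sls-2.1, plus strand, chrII:5844765-5844864: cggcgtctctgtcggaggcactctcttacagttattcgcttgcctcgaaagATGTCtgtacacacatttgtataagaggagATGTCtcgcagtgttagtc
R07E5.16 (WBGene00014543), plus strand, chrIII:10989579-10989678: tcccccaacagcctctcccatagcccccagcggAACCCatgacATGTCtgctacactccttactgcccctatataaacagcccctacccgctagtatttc
F54D8.7 (WBGene00195000), minus strand, chrIII:5080899-5080998: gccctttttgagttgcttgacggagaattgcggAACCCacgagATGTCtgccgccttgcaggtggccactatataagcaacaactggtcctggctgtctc
sup-6, minus strand, chrII:12944968-12945067: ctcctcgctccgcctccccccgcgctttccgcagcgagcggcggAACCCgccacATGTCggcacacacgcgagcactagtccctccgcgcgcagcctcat
sup-39, minus strand, chrII:6968559-6968658: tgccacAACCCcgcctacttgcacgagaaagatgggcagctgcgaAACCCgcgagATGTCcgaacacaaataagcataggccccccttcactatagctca
In 4 of these 5 sequences AACCC and ATGTC lie close together, in that order.

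The 315 regions lay mostly between genes. By the position of the summit, 197 (62.5%) were intergenic, 96 (30.5%) were in an intron and 22 (6.98%) were in an exon of a protein-coding gene. For comparison, the reproducible promoter peaks were intergenic in 85.3%, intronic in 8.03% and exonic in 6.71%. The 18293 other off-promoter peaks of the list, which did not meet the rank condition, were intergenic in 35.5%, intronic in 37.2% and exonic in 27.4%. The exonic share of the reproducible off-promoter regions was thus close to that of promoter peaks and below that of the other off-promoter peaks. Only 36 of these 18293 had a q score of 2 or more in the series-wide list, and the lists include background. They may be largely background, so here and below they are not taken as weaker LIN-15B sites. Of the intronic summits, 42 lay in the first intron of a transcript, and the introns had a median length of 1791 bp (186 to 14446 bp). Of the exonic summits, 11 lay in a 3′UTR, 6 in a 5′UTR and 5 in coding sequence.

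The location shares differed between the replicates when each was taken alone. Among autosomal peaks in each replicate's own top 2000, replicate 1 had 47.2% outside promoters, replicate 2 30.3% and replicate 3 22.4%, or 33.3% ± 12.7 (SD, n = 3). Replicate 1, with the highest off-promoter share, also had the highest exonic share among its off-promoter peaks, 28.7% against 9.84% in replicate 2 and 8.07% in replicate 3. The intronic shares lay closer together, at 29.2%, 30.8% and 25.4%. In its whole list, replicate 1 had 538 peaks whose q score reached 2, against 3083 and 2206 in replicates 2 and 3, and the part of this in the off-promoter share was not tested.

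The next protein-coding start was at a median distance of 1172 bp, with quartiles of 703 and 2218.5 bp. The nearest start was 204 bp away and the farthest 11052 bp. In all, 15 regions were within 500 bp of a start, all downstream of it, 73 at 500 to 750 bp, 40 at 750 to 1000 bp, 98 at 1000 to 2000 bp, 66 at 2000 to 5000 bp and 23 beyond 5000 bp. Thus 187 (59.4%) lay more than 1000 bp from every start, while a sizeable group sat just past the promoter edge. The summit was upstream of its next start in 208 regions (66%), against 40.6% of the other off-promoter peaks, whose median distance was 1556 bp. In each replicate's own list, the median distance of off-promoter top 2000 peaks was 1277 bp ± 58.9 (SD, n = 3).

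**Figure D1:**
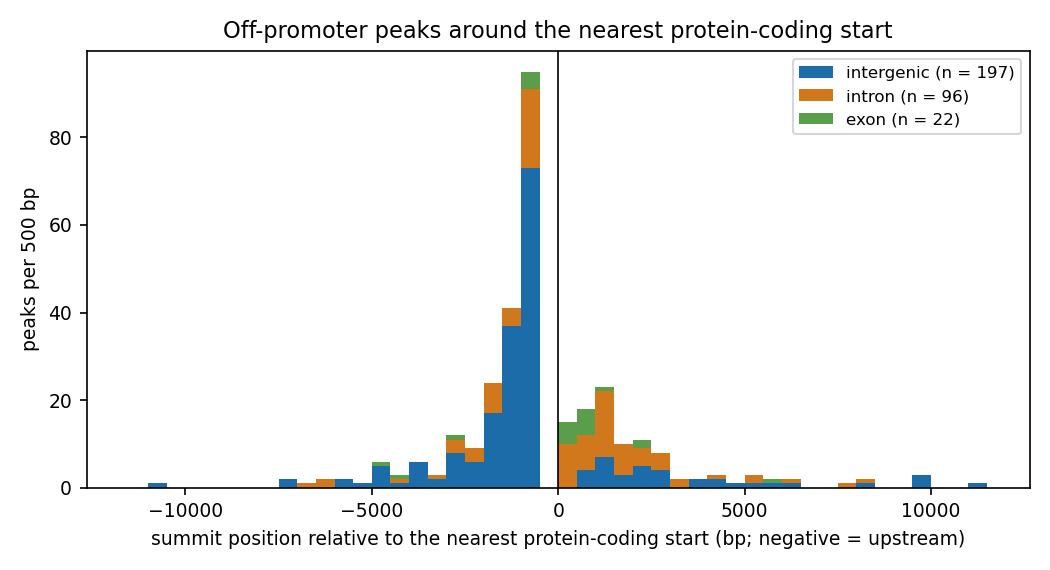
Number of reproducible off-promoter LIN-15B peaks per 500 bp (y axis) by the position of the summit relative to the nearest protein-coding start in bp (x axis, negative is upstream), coloured by location. The 315 summits are densest just upstream of the promoter edge, with 208 upstream of their next start, and the intronic ones (n = 96) make up most of the downstream side.

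The intergenic regions sat between genes in arrangements unlike those of promoter peaks. Of the 197, 60 (30.5%) lay between divergent starts, 123 (62.4%) between genes read in the same direction and 14 (7.11%) between converging genes. Intergenic promoter peaks lay between divergent starts in 66.7% and between genes of the same direction in 33.3%, and the promoter rule leaves no place for converging ones. The other intergenic off-promoter peaks gave 32.7%, 55.9% and 11.3%, close to the regions described. The nearest reproducible promoter peak was at a median of 17252 bp, and 9 regions had one within 1000 bp. This distance was not set against that of another set of peaks. They had 295 distinct next genes, and 19 genes were next to 2 or more of them. Of the 315, 28 shared a replicate peak with another of these regions and 3 with a promoter peak, so neighbouring regions are not always separate peaks in a replicate.

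By chromosome, 77 regions lay on I, 61 on II, 77 on III, 62 on IV and 38 on V. Per megabase this was 5.11 on I, 3.99 on II, 5.59 on III, 3.54 on IV and 1.82 on V. The promoter peaks had the same order, from 19.5 per megabase on III to 8.75 on V. The off-promoter share of reproducible peaks was 22.4%, 22.6%, 22.3% and 23.2% on chromosomes I to IV and 17.2% on V.

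The summits of the replicates were compared with those of the series-wide list. The rule required overlapping peaks, which limits how far apart summits can lie, so the distances are a description. Among regions with a top 2000 peak in the replicate, the median distance between the replicate's summit and the series-wide summit was 13 bp for replicate 1, 18 bp for replicate 2 and 16 bp for replicate 3. Within 50 bp were 82.6%, 77.8% and 80.1% of them, against 94.2%, 93.1% and 92.9% at promoter peaks. The series-wide list was made from the alignments of all 3 replicates, so its summits are not independent of theirs. The replicate's own summit fell into a promoter for 4, 6 and 1 of the regions.

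The share found in the top 2000 of every replicate was lower off promoters than in promoters. All 3 replicates held 129 regions (41%), against 681 promoter peaks (60.1%). Replicates 1 and 2 alone held 74 (23.5%, against 3.62% of promoter peaks), replicates 1 and 3 alone 27 (8.57%, against 3.62%), and replicates 2 and 3 alone 85 (27%, against 32.7%). Both pairs with replicate 1 had a larger share off promoters, by far the most for replicates 1 and 2. Those 2 have the same source and size range in the labels. The reason for the larger shares was not tested. Taken singly, 230 regions were in the top 2000 of replicate 1, 288 of replicate 2 and 241 of replicate 3, with median ranks of 1034, 1001 and 1345. No overlapping peak was listed for 35 regions in replicate 1, 3 in replicate 2 and 10 in replicate 3. In the series-wide list, the regions ranked from 22 to 29623 with a median of 1081. A q score of 2 or more was held by 234 regions, 998 of 1133 promoter peaks and 36 of 18293 other off-promoter peaks.

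The strongest region had its summit at position 3456416 of chromosome III and ranked 19, 15 and 27 in replicates 1, 2 and 3. It lay in a UTR exon of C34C12.2, 2071 bp downstream of the start of C34C12.1. The second, at 2639821 of chromosome I, ranked 33, 22 and 30 and lay past the end of F40E3.3, 1172 bp from its start. The mean ranks of these were 20.3 ± 6.11 and 28.3 ± 5.69 (SD, n = 3), so the replicates put both among their strongest peaks, beside the promoter peaks.

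Several of the strongest regions lay a short way upstream of a single gene, past the promoter edge. The K12H4.5 region (summit 8043984 of III) ranked 47, 59 and 41 at 503 bp upstream, only just outside the promoter edge. The kin-19 region (4087795 of III) ranked 107, 92 and 43 at 1159 bp upstream; kin-19 encodes a casein kinase I of Wnt signalling. The mrpl-15 region (1435668 of I) ranked 114 and 89 in replicates 1 and 2, with a mean rank of 101.3 ± 12.5 (SD, n = 3), at 611 bp upstream of this gene of the mitochondrial large ribosomal subunit. In these regions the replicates gave ranks of the same order. The Y59A8B.24 region (17951440 of V) ranked 62 and 72 in replicates 1 and 2 and 240 in replicate 3, at 509 bp upstream. The tag-340 region (4899953 of III) ranked 68, 158 and 157, at 555 bp upstream of tag-340 and 3 bp upstream of the ncRNA gene F26F4.14. These last regions show how a region off the coding promoters can sit at the start of an annotated noncoding transcript, and how a strong peak can differ in rank between replicates.

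The other regions among the 10 with the best mean rank lay inside or beyond genes. The C07H6.9 region ranked 125, 70 and 104, at 710 bp from the start of C07H6.9 and 796 bp upstream of cgh-1, which encodes a DEAD-box RNA helicase of germline RNA granules. A region at 10178424 of chromosome I ranked 120, 148 and 64 in an intron of fath-1, a gene of fatty acid 2-hydroxylation, 594 bp upstream of C25A1.16. A region at 17020 of chromosome I ranked 210, 118 and 89, 1917 bp from the start of nlp-40, which encodes a neuropeptide-like protein released from the intestine. In all 10 regions each replicate ranked the peak at 240 or better.

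**Figure D2:**
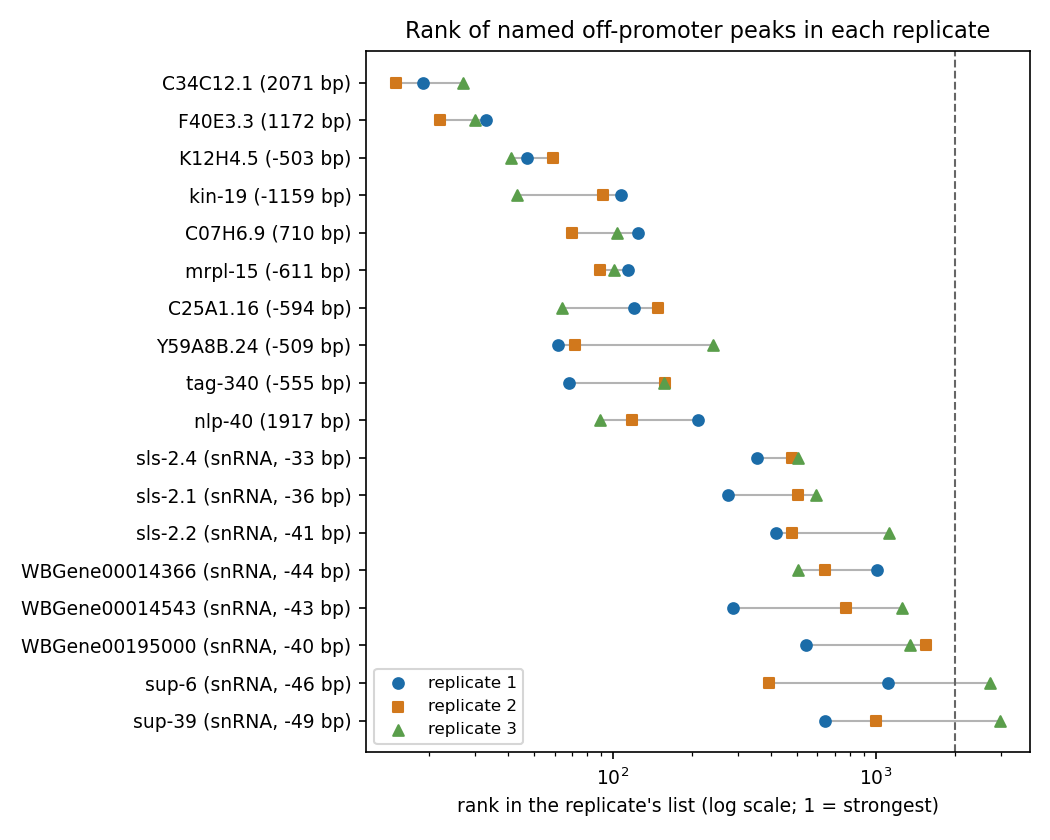
Rank of each named region in replicates 1 (circles), 2 (squares) and 3 (triangles) on a log scale, with the rank limit of 2000 as a dashed line; labels give the next protein-coding gene or snRNA gene and the summit's position relative to its start. The 10 strongest regions rank at 240 or better in every replicate, and sup-6 and sup-39 pass the limit in replicates 1 and 2 only.

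Among intronic regions, the strongest after fath-1 lay in col-72, a collagen gene, at 453 bp from its start with ranks of 305, 368 and 238. Y56A3A.7 followed at 467 bp with 208, 382 and 360. The region in pygl-1, the glycogen phosphorylase gene, lay 929 bp from the start with ranks of 450, 761 and 125, the widest spread of the 3. Of the strongest exonic regions, the one in a UTR of cept-2, 556 bp upstream of vha-13, a subunit gene of the vacuolar proton pump, ranked 288, 222 and 381. A UTR of agt-2, a gene of the DNA repair alkyltransferase family, held a region ranked 145, 331 and 488. A region in a UTR of hsp-12.3, a small heat shock gene, ranked 1008, 642 and 507 in the replicates but 4259 in the series-wide list. Its replicate peaks also match the neighbouring region at an snRNA gene described further on, so the hsp-12.3 region is not a separate peak.

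The 3 regions farthest from any coding start differed widely in rank between replicates. The farthest, 11052 bp from the start of Y37A1B.7 at 14032728 of chromosome IV, ranked 12561, 1178 and 1477. The next, 10919 bp upstream of ckr-2, a gene of a cholecystokinin-like receptor, lay 4 bp upstream of a tRNA gene and ranked 25159, 1274 and 1776. The last, 9825 bp from Y37A1B.7 and 53 bp upstream of the microRNA gene mir-52, ranked 1053 and 1289 in replicates 1 and 2 and had no listed peak in replicate 3. Each of these entered through 2 replicates, and in each the remaining replicate ranked it far lower or not at all. Other distant regions had closer ranks. Of the 23 regions beyond 5000 bp, 7 (30.4%) were in the top 2000 of every replicate, against 41% of all the regions. Chosen after their values were seen, the efa-6 region at 7172 bp ranked 1152, 746 and 954, and a region 8271 bp from the start of sup-35 ranked 662, 426 and 998.

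At the edges of the rule, regions and peaks were picked for being nearest a limit, so their closeness there is by construction. Just inside the rank limit, a region 5554 bp from K01H12.4 had a second best rank of 1995, and one 321 bp from W09G3.6 had 1981. Just outside, a peak 2144 bp upstream of cmd-1 had 2015 and one 651 bp upstream of Y38C1BA.1 had 2020. Besides K12H4.5, the hrpr-1 region lay 503 bp upstream of its start, with ranks of 6266, 850 and 1266, while peaks 499 bp upstream of smo-1 and 496 bp upstream of ran-4 counted as promoter peaks. On the downstream side, regions 204 bp into Y71F9AL.12 and 265 bp into K10C3.4 were kept, and peaks 165 bp into Y32H12A.8 and 160 bp into tsen-34 were not.

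Noncoding genes were a recurring location, and 35 of the 315 summits lay at snRNA, snoRNA or tRNA genes. Of the 315 summits, 100 (31.7%) lay inside or within 500 bp upstream of a noncoding gene, piRNA genes left out, against 11.2% of promoter peaks and 10.1% of other off-promoter peaks. Genes annotated only as ncRNA made up 54 of these (17.1%, against 8.03% and 4.99%). snoRNA genes, whose products guide the modification of ribosomal RNA, had 19 (6.03%, against 2.03% and 0.432%). snRNA genes, which in the worm annotation include spliceosomal RNAs and spliced leader RNAs, had 9 (2.86%, against 0.353% and 0.104%). Pseudogenes had 15 (4.76%), near the 3.72% of other off-promoter peaks. Of the rest, tRNA genes had 7 (2.22%, against 0.47% of other off-promoter peaks), lincRNA genes 6 (1.9%, against 0.503%) and miRNA genes 2 (0.635%, against 0.186%). piRNA genes, counted apart, had 6 (1.9%), against 5.56% of other off-promoter peaks and 1.68% of promoter peaks. The promoter rule itself sets a promoter peak near a coding start, so a share at noncoding genes is compared best with the other off-promoter peaks.

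At snRNA genes the summits stood at nearly 1 position. Of the 9, 8 lay 33 to 49 bp upstream of the gene's start: 33 bp for sls-2.4, 36 for sls-2.1, 41 for sls-2.2, 46 for sup-6 and 49 for sup-39. F54D8.7 (WBGene00195000) had 40 bp, R07E5.16 (WBGene00014543) 43 bp and F38E11.11 (WBGene00014366) 44 bp. The ninth, 241 bp upstream of the same F54D8.7 gene, shared its peaks in replicates 2 and 3 with the summit at 40 bp. As background, snRNA genes of animals are driven by a proximal element a short way upstream of the start.

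The sls-2 genes encode SL2, the spliced leader joined to downstream genes of operons. The region at sls-2.1 ranked 273, 508 and 592 in replicates 1, 2 and 3. That at sls-2.4 ranked 353, 481 and 504, and that at sls-2.2 ranked 417, 479 and 1122. All 3 replicates had these regions in their top 2000. Of 18 annotated sls-2 genes, sls-2.8 also had a peak in the top 2000 of every replicate (138, 165 and 469), but that summit lay in a coding promoter. No listed peak lay in or within 500 bp upstream of sls-2.6, sls-2.9, sls-2.10, sls-2.11, sls-2.12 or sls-2.17. The copies were thus not marked alike. They resemble each other, so which copy gave the reads is uncertain.

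The remaining snRNA genes ranked somewhat lower. R07E5.16 (WBGene00014543) ranked 287, 768 and 1260, F38E11.11 (WBGene00014366) 1008, 642 and 507, and F54D8.7 (WBGene00195000) 541, 1555 and 1346. sup-6, known with sup-39 for suppressor alleles in U1 snRNA genes, ranked 1117, 392 and 2727, and sup-39 ranked 642, 1001 and 2958. For both sup genes replicate 3 was the replicate outside the top 2000. Across all autosomal genes of each class, such a region marked 9 of 126 snRNA genes (7.14%), 20 of 313 snoRNA genes (6.39%), 8 of 336 tRNA genes (2.38%), 6 of 156 lincRNA genes (3.85%) and 2 of 187 miRNA genes (1.07%). These are counts of genes and not of summits, and 1 summit can mark more than 1 gene. The sup-39 summit also lay 56 bp upstream of mir-1831, which is annotated as an snRNA gene. Most genes of each class thus had no reproducible off-promoter peak. With promoter peaks counted too, the shares were 10.3% of snRNA, 13.7% of snoRNA, 3.87% of tRNA, 4.49% of lincRNA and 4.28% of miRNA genes.

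The words printed in capitals upstream of the snRNA genes were counted in other genes too. AACCC was in the 100 bp upstream of 5 of these 8 genes and ATGTC in 5 of 8, on the gene's own strand. Of all 126 autosomal snRNA genes, 42.9% held AACCC and 33.3% ATGTC, against 15.7% and 10.9% of snoRNA genes and 5.27% and 5.81% of protein-coding genes. Both words together were in 4 of the 8, in 21.4% of all snRNA genes, in 1.6% of snoRNA genes and in 0.278% of coding genes. Most snRNA genes thus lacked each word, and since the words were read from the sequences printed, their counts in the 8 genes support nothing.

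At snoRNA genes, 17 of 19 summits lay upstream, by 1 to 131 bp with a median of 40 bp, and 2 lay inside the gene. In 11 cases the summit was in an intron of a protein-coding gene. The strongest was at F59C6.15, 80 bp upstream, with ranks of 597, 509 and 1070, and the next at Y55F3BR.9, 12 bp upstream in an intron of Y55F3BR.2, with 471, 905 and 1510. The region at C16D9.11, in an intron of rol-3, ranked 442 and 1191 in replicates 1 and 2 and had no listed peak in replicate 3. That last pattern was frequent: the top 2000 held 16 of the 19 in replicate 1, 19 in replicate 2 and 7 in replicate 3, with median ranks of 838, 1034 and 3272. Of the 280 regions at none of the snRNA, snoRNA or tRNA genes, the top 2000 held 71.8%, 90.4% and 79.6%, with median ranks of 1047, 1012 and 1246. The snoRNA regions therefore came mainly from replicates 1 and 2, which share a source and a size range in their labels. Fragmentation, stock and replicate 3 cannot be told apart.

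**Figure D3:**
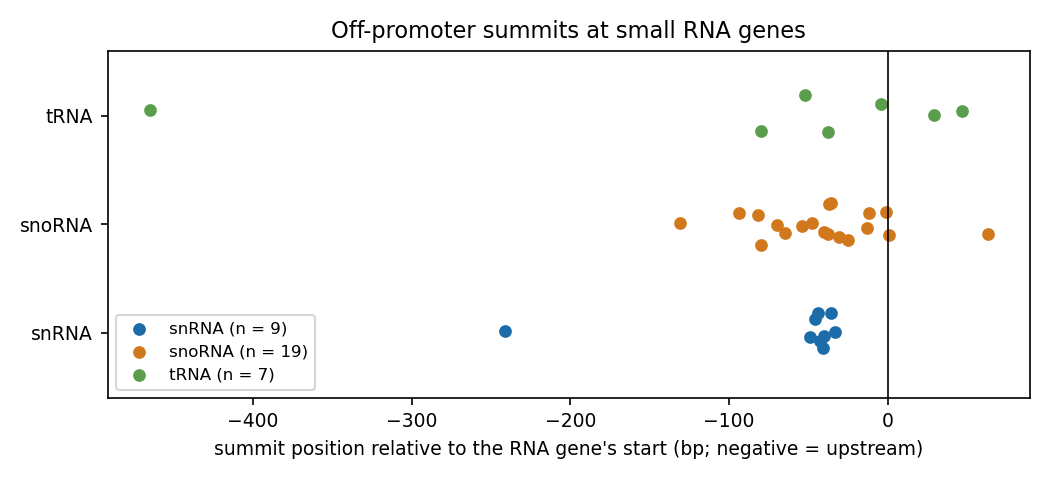
Position of reproducible off-promoter summits relative to the start of the nearest snRNA, snoRNA or tRNA gene in bp (x axis, negative is upstream; points are shifted vertically at random for legibility). Of 9 snRNA summits, 8 lie 33 to 49 bp upstream, while the 19 snoRNA summits reach from 131 bp upstream to inside the gene.

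Regions at tRNA genes were few and spread out. Of 7, 2 lay inside the gene and 5 upstream by 4 to 465 bp. The strongest, 80 bp upstream of the tRNA gene WBGene00023055 in an intron of spe-15, ranked 426, 701 and 1133. The top 2000 held 5 of the 7 in replicate 1, 7 in replicate 2 and 4 in replicate 3. At lincRNA genes, the region inside linc-128 on chromosome V ranked 79, 96 and 812. The region 338 bp upstream of linc-60 ranked 298, 417 and 218, and the lin-23 region, described further on, lay 479 bp upstream of linc-27. The other regions at lincRNA genes ranked lower in at least 1 replicate: the one inside linc-146 ranked 3760, 1269 and 1066, that inside linc-72 1025, 1739 and 5724, and that inside linc-129 16293, 540 and 1361.

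The base composition of the windows, 100 bp either side of the summit, was richer in G and C than at either kind of comparison peak. GC content was 45.2% ± 7.41 (SD over the 315 windows, which are not replicates), against 39.8% ± 6.24 at promoter peaks and 35.4% ± 6.93 at other off-promoter peaks. In the replicates' own top 2000 off-promoter peaks it was 41.7%, 44.8% and 40.6%, or 42.4% ± 2.18 (SD, n = 3), against 39.8% ± 1.02 in promoters and 35.1% ± 2.36 among the 2000 weakest peaks. The CpG ratio (observed over expected) was 1.16 ± 0.391, between 1.5 ± 0.388 at promoter peaks and 0.983 ± 0.453 at other off-promoter peaks. Soft-masked sequence, in lower case in the RefSeq genome, made up 24.0% of the windows, less than at promoter peaks (36.9%) or other off-promoter peaks (34.5%). The regions were therefore GC-rich with less soft-masked sequence, without the high CpG ratio of promoter peaks.

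The word GAGAGA, on either strand, was in 157 of the 315 windows (49.8%). It was in 27.2% of the promoter peak windows, 12.3% of the other off-promoter windows and 16.3% of windows of the same length placed just upstream of all autosomal protein-coding genes. GA repeats are bound by the GAGA factor in Drosophila, and a match here is a description of the sequence only. The E2F-like words (TTCCCGC, also the form TTCGCGC, also the form TTGCCGC, also the form TTGGCGC), searched on both strands, were in 53 windows (16.8%), against 24.1% at promoter peaks, 6.49% at other off-promoter peaks and 6.45% upstream of all genes. GAGCGC was in 74 (23.5%), against 27.1%, 3.14% and 3.6%. The tRNA B box core GGTTCGA, the internal element of tRNA genes, was in 18 (5.71%), against 1.06%, 1.73% and 0.847%. So the words known from the promoter peaks were present in the off-promoter regions too, the E2F-like ones at a lower share, while GA repeats and the B box core had higher shares than at promoter peaks.

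Some words had lower shares in the regions than in at least 1 of the comparison sets. The CHR-like words TTCGAA and TTTGAA, the second kind of element known for DREAM targets, were in 118 windows (37.5%), against 59.3% at promoter peaks, 56.3% at other off-promoter peaks and 57.4% upstream of all genes. The GATA-like words (AGATAA, or with a final G, or with an initial T) were in 27%, against 22.2%, 35.7% and 42.6% in the same sets. The TATA-like word TATAAA was in 10.8%, against 14.9%, 20.5% and 30.7%. The E-box CACGTG had a higher share, 6.03% against 4.32%, 3.49% and 4.37%. All were searched on both strands, and a stretch of sequence can count for more than 1 motif, since the B box core and the CHR-like TTCGAA share the letters TTCGA. GC content was higher in the regions than in both sets, and its part in these shares was not tested.

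The replicates did not give the GAGAGA share alike. Among each replicate's own top 2000 off-promoter peaks, at its own summits, GAGAGA was in 24.2% for replicate 1, 48.6% for replicate 2 and 41.6% for replicate 3, or 38.1% ± 12.6 (SD, n = 3). Among the promoter peaks of the same lists it was in 24.4%, 28.5% and 25.2%, or 26% ± 2.17. In the 2000 weakest peaks of each list, off promoters, it was in 9.13%, 10.1% and 10.7%. A higher share off promoters than in promoters was thus seen in replicates 2 and 3, and not in replicate 1, where the shares were level. All 3 replicates had a higher share among strong than among weak off-promoter peaks. For the E2F-like words the off-promoter shares were 9.5%, 11.5% and 18.1% and the promoter shares 22.0%, 23.9% and 21.6%, lower off promoters in every replicate. GAGCGC was likewise lower off promoters in every replicate, at 8.88%, 16.2% and 20.5% against 25.3%, 25.8% and 26%. The B box core was higher off promoters in every replicate, at 2.62%, 6.01% and 4.4% against 1.67%, 1.03% and 0.917%.

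**Figure D4:**
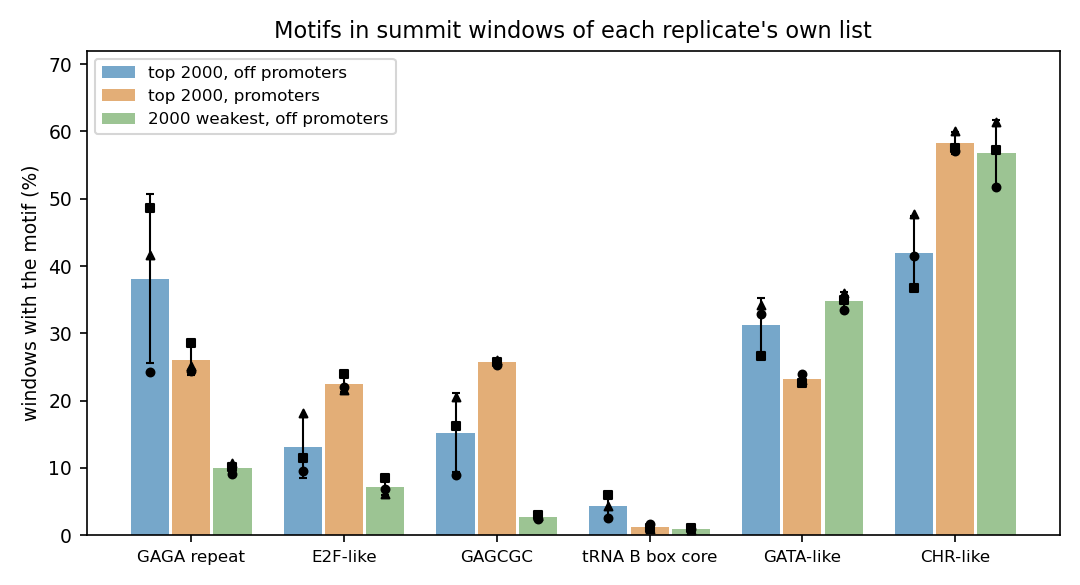
Percentage of summit windows holding each motif (y axis) in the top 2000 peaks off promoters, the top 2000 peaks in promoters and the 2000 weakest peaks off promoters of each replicate's own list; bars are means, error bars SD (n = 3), and circles, squares and triangles are replicates 1, 2 and 3. GAGAGA off promoters ranges from 24.2% in replicate 1 to 48.6% in replicate 2, while its promoter shares lie between 24.4% and 28.5%.

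GC content moved with GAGAGA, and a split by GC content, made after these shares were seen, set like windows side by side. In windows under 35% GC, GAGAGA was in 16.1% of the off-promoter regions and 17% of promoter peaks. From 35% to 40% GC it was in 31.2% and 21.3%, from 40% to 45% in 48.6% and 29%, from 45% to 50% in 60.5% and 42.2%, and at 50% or more in 64.2% and 56.5%. The share rose with GC content in both kinds of peak and was higher off promoters in each class except the lowest. The other off-promoter peaks went from 7.47% in the lowest class to 28.9% in the highest, below both.

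**Figure D5:**
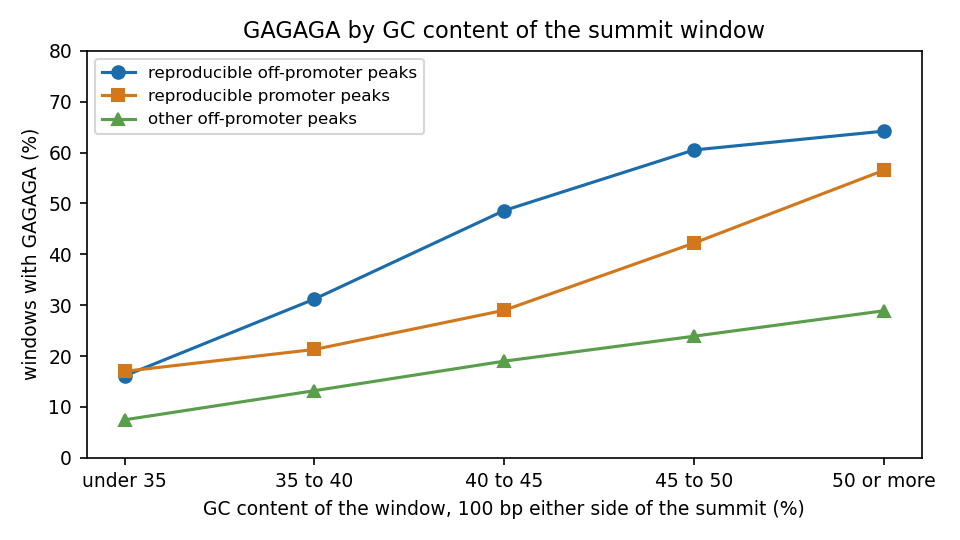
Percentage of summit windows holding GAGAGA (y axis) in classes of GC content (x axis) for the reproducible off-promoter peaks (circles), reproducible promoter peaks (squares) and other off-promoter peaks (triangles). From 35% GC upward the off-promoter regions lie above both other sets, from 31.2% to 64.2%, and under 35% GC they are level with promoter peaks at 16.1% and 17%.

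The GA repeats were short in most regions. The longest uninterrupted run of GA or CT had a median of 6 bp, and 44 regions (14%) had a run of 10 bp or more, against 1.59% of promoter peaks and 1.14% of other off-promoter peaks. The longest were 41 bp in the region 1484 bp upstream of dyb-1, which ranked 606, 1356 and 3000, and 40 bp in the mrpl-15 region. The pygl-1 window above has a run of 13 bp. In windows with GAGAGA, the centre of the longest run was a median of 44 bp from the summit, against 44.5 bp at promoter peaks and 50 bp at other off-promoter peaks. Runs spread evenly over such a window would also lie about midway between its centre and its edge, so no closeness to the summit is read from this.

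By location, GAGAGA was in 58.9% of the intergenic regions, 37.5% of the intronic, 22.7% of the exonic and 39% of those at noncoding genes. By distance to the next start it was in 3 of 15 regions within 500 bp (20%), 41.1% at 500 to 750 bp, 57.5% at 750 to 1000 bp, 52% at 1000 to 2000 bp, 53% at 2000 to 5000 bp and 65.2% of the 23 regions beyond 5000 bp. The share was thus lowest in the regions closest to a start and highest in the most distant ones. The share varied little with mean rank: in successive groups of 63 regions by mean rank, it was 50.8%, 50.8%, 54%, 42.9% and 50.8%. Every region had a rank of 2000 or better in at least 2 replicates, so a late mean rank mostly reflects the remaining replicate. These groups therefore do not measure strength. The CpG ratio was 1.33 in the 63 regions with the best mean rank and 1.05 to 1.15 in the rest. The regions with and without GAGAGA had median ranks of 1039 and 1034 in replicate 1, 920 and 1088.5 in replicate 2, and 1378 and 1277.5 in replicate 3. GAGAGA and an E2F-like word were together in 27 regions (8.57%), and 132 (41.9%) had neither.

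The next start of each region was counted in lists of genes. None had a ribosomal protein gene as the next start, against 3.09% of promoter peaks and 0.246% of other off-promoter peaks. The proteasome gave 1 (0.317%), rpt-3 of the regulatory particle, at 654 bp, against 1.15% of promoter peaks and 0.0437% of other off-promoter peaks. Histone genes gave none, against 0.353% and 0.0765%. Chemoreceptor genes gave 1 (0.317%), srsx-22, against 5.08% of other off-promoter peaks and 0.177% of promoter peaks. Collagen genes gave 3 (0.952%), col-72, col-94 and col-63, against 0.465% of other off-promoter peaks and none of the promoter peaks. Only the col-72 region lay in its collagen gene. The col-94 region is the R07E5.16 (WBGene00014543) snRNA region in an intron of dhc-4, and the col-63 region lay in a UTR of ceh-8. Genes named as nhr, ceh, hlh, unc, egl, let or lin gave 14 (4.44%, against 5.12% of other off-promoter peaks and 2.21% of promoter peaks). Among these were hlh-30, a regulator of autophagy and lysosome genes, with a region in its own intron 3161 bp upstream of the next start (ranks 767, 1299 and 567), and lin-28, a heterochronic gene, with a region 553 bp upstream (953, 3889 and 705). Both were chosen after their values were seen.

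For 3 of the 315 regions (0.952%) the next start was in the list of synMuv and DREAM genes, to which lin-23 was added. The shares were 0.137% of other off-promoter peaks and 0.53% of promoter peaks. Of the 3 genes lin-23, a gene of an F-box protein that limits cell division, is not itself a synMuv or DREAM gene. Without it 2 regions remain, and the shares of the comparison sets were not recounted without it. The lin-23 region lay 947 bp upstream and ranked 319, 160 and 320. The lin-13 region lay 764 bp upstream with ranks of 425, 630 and 375, and its window held GAGAGA. The lin-9 region, 4221 bp downstream of the start of this gene of a DREAM subunit, ranked 322, 628 and 166. Its window held an E2F-like word. All 3 regions were in the top 2000 of every replicate, but the next start is a matter of position and does not tell which gene, if any, a peak serves.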

How the data were processed

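Per the labels, ChIP-seq of LIN-15B was done in 3 replicates of 1 group. The authors deposited peak lists on ce11, 1 for each replicate and 1 series-wide, made per the deposited records from alignments and 1 further file, with background included. Which aligner and which peak caller were used is not given in the sources used here. Column 7 is the authors' signal value on the caller's scale, from which each peak's rank in its list was taken and nothing else. The q column was read as a score, since the authors' values include some below 0. The lists on ce10 were not used here.

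Replicate peaks were matched to series-wide peaks by an overlap of 1 bp or more, and the best rank was taken. Locations come from Ensembl release 115 and sequences from the RefSeq genome, both on WBcel235. Windows span 100 bp either side of a summit. The members and lists were chosen with earlier results of these data known. Named regions are the 10 with the best mean rank (a missing match ranks last), up to 4 of each location class, the 3 farthest from a start, those next to synMuv and DREAM genes, and those at the edges of the rule. No test was run over regions. The matching and location steps were tested on simulated data. Python 3.11.15, pandas 2.3.3 and numpy 2.4.6 were used. No column of unmatched samples was present.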

Additional observations from a re-analysis of the deposited data

How the results depend on the processing

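Of 172 alternative values for 12 results, 125 moved by less than the spread between replicates (counts: by less than 1.5 times) and 47 moved further. Requiring all 3 replicates gave 129 regions, 76.7% intergenic and 16.3% in introns, a median distance of 1055 bp and a median mean rank of 772. With 1 replicate, 1272 regions (42.1% of reproducible peaks) were 48.6% intergenic, 21.9% in exons and 22.1% at noncoding genes, with a median distance of 1325.5 bp, a median mean rank of 13323.7, 41.4% GC, a CpG ratio of 1.02, E2F-like words in 10.7% and GAGAGA in 31.1%. Ranks 1 to 1000 gave 133 regions, 24.1% in introns, 1013 bp and a median mean rank of 795, and ranks 1 to 3000 a median mean rank of 2601. A promoter of 250 bp up to 100 bp down gave 589 regions (40.7%), 21.7% in introns, 25.1% at noncoding genes, 519 bp, a median mean rank of 1327.7 and a CpG ratio of 1.28. One of 1000 bp up to 500 bp down gave about 2.0e+02 regions, 33.8% in introns and 1805 bp. Starts of all transcripts left 26.9% in introns and, by construction, 3.24% at noncoding genes. A series-wide q score of 2 or more gave a median mean rank of 1258.7. Windows of 50 bp either side gave 47.8% GC, E2F-like words in 10.2% and GAGAGA in 36.2%. Such windows hold fewer bases in which a word can occur. The causes of these moves were not tested.

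With 1 replicate left out and both others required, the number of regions ranged from 156 to 214, the share in introns from 20.5% to 29.1%, the share at noncoding genes from 28.0% to 39.4%, the median distance from 1103.5 to 1127 bp and the median mean rank from 840 to 957. The lowest number was without replicate 2. GAGAGA stayed between 48.3% and 51.9%. Each of these sets is a part of the regions described. All of them hold the same 129 regions in the top 2000 of every replicate, of which 49.6% had GAGAGA. A similar share is therefore largely by construction and cannot show that it holds in each replicate. In the replicates' own top 2000 off-promoter peaks, GAGAGA ranged from 24.2% in replicate 1 to 48.6% in replicate 2. No paired analysis was possible because there is 1 group. Peak lists give no reads, so depth limits could not be stated, and the order of ranks is not a measure of occupancy.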
